A study of Glycine max with 16 samples.

Results

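Photosystem genes whose transcripts were lower late in the day form a set of 7 loci among the 56044 genes counted in leaves of field-grown soybean. The set comprised PsaK (Glyma.09G087700), 2 loci for Psb28 (Glyma.13G127200 and Glyma.10G040600) and 4 loci that the study places among its photosystem genes and to which the sources used here give no subunit name (Glyma.04G215800, Glyma.06G150300, Glyma.06G113200 and Glyma.04G249700). Members were selected on measured values of these same libraries: they belong to the study's diurnally changing photosystem genes, and their normalized abundance was lower at 17:00 than at 8:00. A Glyma identifier opens with its chromosome, so the 7 loci lie on 5 chromosomes, with 2 of them on chromosome 4 and 2 on chromosome 6; coordinates were not used here. That difference is therefore a description here, and tests are given only for measures that it did not fix. Since the study listed only genes that changed during the day, the later tests between time points are not fully independent of the choice. The samples were whole leaflets from an uppermost, fully expanded leaf of cultivar 93B15, a commercial line, from plants that had reached reproductive development. Sampling took place at 8:00, 11:00, 14:00 and 17:00. Counted from dawn as zeitgeber time, in hours and minutes, the first of these was 2:20 and the last 11:20. No treatment was applied, and by design the 4 groups differ in the time of sampling. The libraries were sequenced on 2 lanes assigned at random, and the sample labels do not give the lane of each. Each of the 4 field plots was 1 biological replicate and was sampled on a day of its own, so plot and day cannot be told apart, and each library holds the 3 pooled leaflets of 1 leaf.

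Photosystem I and photosystem II are the pigment-protein complexes of the thylakoid membrane that use light to move electrons, photosystem II taking them from water and photosystem I passing them on to ferredoxin. Their reaction centre proteins are encoded in the chloroplast, whereas many small and peripheral subunits and the light-harvesting proteins are encoded in the nucleus and imported. PsaK is a small nuclear-encoded membrane subunit of photosystem I on the side where the light-harvesting antenna attaches. Psb28 is known, mainly from the cyanobacterium Synechocystis, as a protein that takes part in the assembly of photosystem II and is not retained in the mature complex.

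Libraries held between 14968570 and 25691784 counts assigned to genes (median 21411331). All 7 loci passed the filter of at least 8 counts in at least 1 library, as did 36059 of the 56044 genes, and each locus had between 351 and 43089 reads in every library. Abundance is given as CPM, the counts of a gene scaled to a common library size after TMM scaling, which adjusts for differences in composition. Values were not divided by gene length, so levels are compared within a locus and not between loci. In whole leaflets, fewer cells of a type and less RNA per cell cannot be told apart. As a mark of green leaf tissue, the light-harvesting gene Glyma.08G082900 had a mean of 2746 to 9122 CPM at the 4 time points. Markers of other leaf cell types were not analysed here, because the locus identifiers could not be paired with their names.

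PsaK and 2 of the unnamed loci, Glyma.04G215800 and Glyma.06G150300, had their highest mean at 8:00 and a lower mean at each later time point. PsaK had 186, 312, 321 and 133 CPM in plots 1 to 4 at 8:00, and 172, 265, 240 and 141 CPM at 11:00. It had 107, 198, 168 and 75.7 CPM at 14:00 and 84.5, 120, 82.5 and 48.1 CPM at 17:00. The ranges at 8:00 and 17:00 did not overlap, and within every plot abundance was lower at each step, except in plot 4, where it was slightly higher at 11:00 than at 8:00. The mean at 17:00, 83.7 ± 29.3 CPM, was 35.2% of the mean at 8:00, and the mean at 14:00, 137 ± 55.9 CPM, was 57.7% of it (SD, n = 4 plots).

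Glyma.04G215800 had the steepest course of the 7 loci relative to its own morning level. It had 418, 643, 682 and 362 CPM in plots 1 to 4 at 8:00 and 328, 492, 427 and 284 CPM at 11:00. At 14:00 it had 168, 311, 249 and 125 CPM, and at 17:00 it had 89.7, 122, 94.7 and 67.0 CPM. Abundance was lower at every step in all 4 plots, and the mean at 17:00, 93.3 ± 22.5 CPM, was 17.7% of the mean at 8:00, 526 ± 160 CPM (SD, n = 4).

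Glyma.06G150300 followed a similar course until 14:00 and a flatter one afterwards. It had 736, 1176, 1051 and 521 CPM in plots 1 to 4 at 8:00 and 527, 819, 716 and 379 CPM at 11:00. At 14:00 it had 253, 490.2, 398 and 174 CPM, and at 17:00 it had 196, 313, 223 and 156 CPM. Within each plot abundance was lower at every step, but the ranges at 14:00 and 17:00 overlapped, and in plot 4 the last step was only 1.12-fold.

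**Figure D1:**
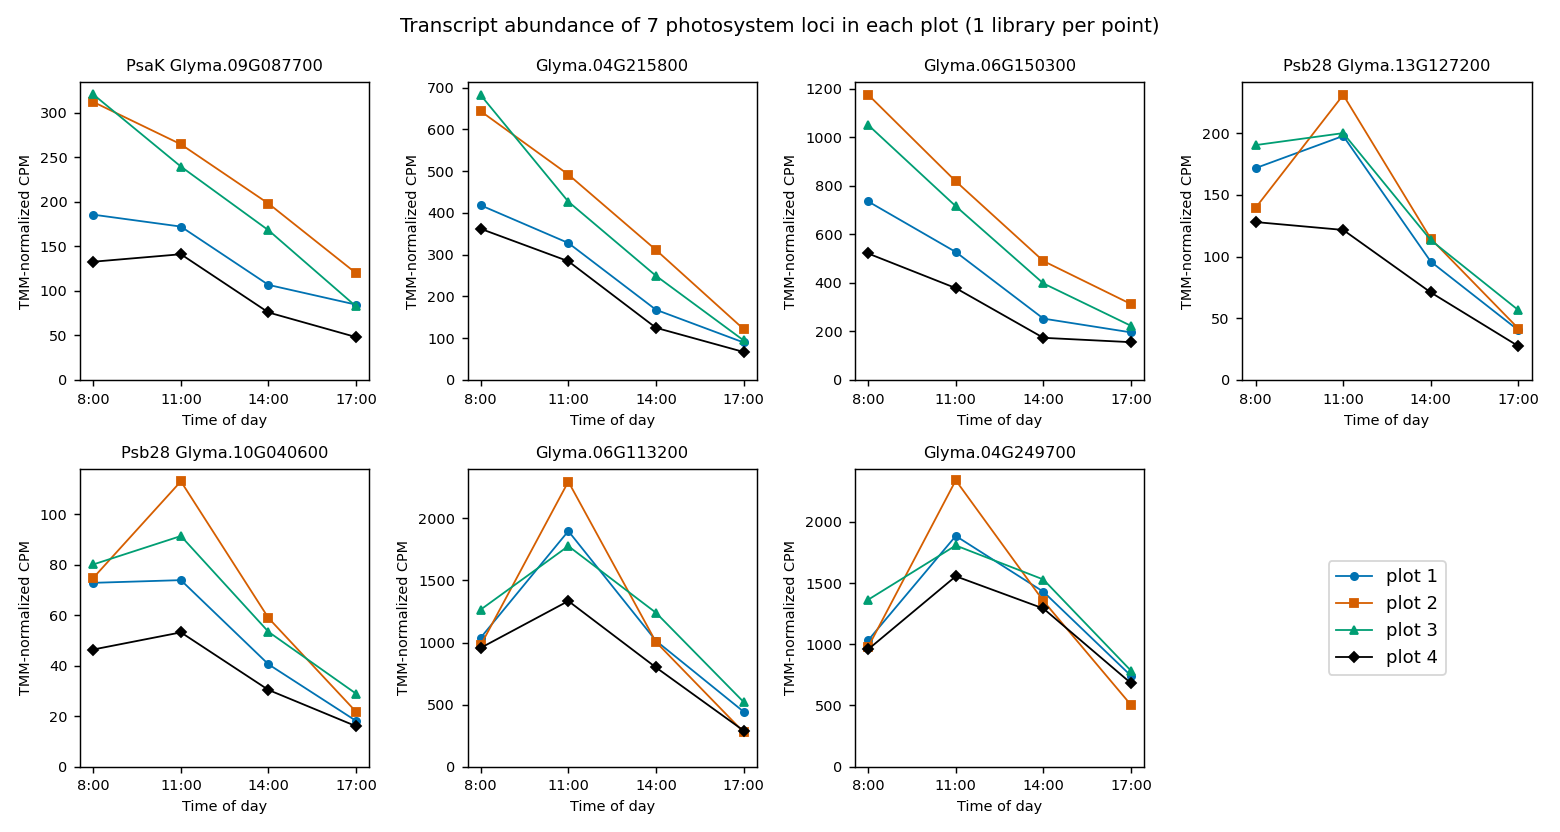
TMM-normalized CPM (vertical axes, each from 0) against time of day (horizontal axes) for the 7 loci, with 1 point per library and 1 line per plot. The 3 loci in the upper row from the left are highest at 8:00, whereas the means of the other 4 are highest at 11:00, and plot 4 (black) has the lowest value of PsaK at all 4 time points.

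The Psb28 loci differed from those 3 in the morning. Glyma.13G127200 had 172, 140, 190.4 and 128 CPM in plots 1 to 4 at 8:00 and 198, 231, 200.1 and 122 CPM at 11:00. It had 95.9, 114, 113 and 70.9 CPM at 14:00 and 40.2, 41.6, 56.5 and 27.3 CPM at 17:00. From 8:00 to 11:00 abundance was higher in 3 plots and slightly lower in plot 4, and the ranges overlapped. No value at 14:00 reached the lowest value at 11:00, and no value at 17:00 reached the lowest at 14:00.

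Glyma.10G040600, the other Psb28 locus, had the same order of means. Its abundance was 72.8, 74.8, 80.1 and 46.4 CPM in plots 1 to 4 at 8:00 and 73.9, 113, 91.4 and 53.2 CPM at 11:00. It was 40.5, 58.9, 53.4 and 30.4 CPM at 14:00 and 18.1, 21.7, 28.9 and 16.0 CPM at 17:00. Abundance at 11:00 was above that at 8:00 in all 4 plots, by 1.01-fold in plot 1 and by 1.51-fold in plot 2. Its mean of 82.9 ± 25.5 CPM at 11:00 was 121% of that at 8:00, and its mean of 21.2 ± 5.65 CPM at 17:00 was 30.9% (SD, n = 4).

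Glyma.06G113200 and Glyma.04G249700 were highest at 11:00 in each plot. Glyma.06G113200 had 1039, 979, 1266 and 957 CPM in plots 1 to 4 at 8:00 and 1898, 2297, 1777 and 1335 CPM at 11:00. It had 1014, 1005, 1240.3 and 799.6 CPM at 14:00 and 443, 278, 522 and 291 CPM at 17:00. The values at 11:00 lay above all those at 8:00 and at 14:00, and the values at 17:00 lay below all others.

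Glyma.04G249700 had a similar morning course and a slower decrease afterwards. It had 1032, 977, 1364 and 958 CPM in plots 1 to 4 at 8:00 and 1884, 2339, 1807 and 1555 CPM at 11:00. At 14:00 it had 1429, 1353, 1529 and 1292 CPM, and at 17:00 it had 742, 504, 784 and 682 CPM. Its mean at 14:00 was still 129% of the mean at 8:00, whereas that of Glyma.06G113200 was 95.7%.

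The difference between 17:00 and 8:00, which chose the members, ranged widely among them. On the log2 scale it was -2.47 in Glyma.04G215800, -1.96 in Glyma.13G127200, -1.94 in Glyma.06G150300, -1.69 in Glyma.10G040600, -1.49 in Glyma.06G113200, -1.48 in PsaK and -0.67 in Glyma.04G249700. Abundance was lower at 17:00 in all 4 plots for each of the 7 loci. Glyma.04G249700, the member nearest to no difference, was lower by 1.39-fold to 1.94-fold within plots. Of all genes tested, 23.8% were lower at 17:00 than at 8:00 at an adjusted p under 0.05 and 27.1% were higher. All 7 members were among these, which the choice of members fixed. PsbD (Glyma.01G153500), the other photosystem locus that the study's text names, lay on the far side of the criterion, with a mean of 1.87 ± 0.352 CPM at 8:00 that was followed by 3.09 ± 1.13 CPM at 17:00 (SD, n = 4). That difference, 0.67 on the log2 scale, did not pass (adjusted p = 0.0526 from edgeR), with 3 plots higher and 1 lower. PsbD had only 26 to 126 reads per library. As a locus on a nuclear chromosome in poly-A libraries, it need not stand for a transcript of the chloroplast.

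The hours in which most of the decrease took place also differed. In PsaK 42.7% of the whole log2 difference lay between 11:00 and 14:00 and 45.8% between 14:00 and 17:00. In Glyma.06G150300 the same 2 intervals held 48.3% and 25.8%, and the morning held 26.0%. In Glyma.06G113200 the mean at 14:00 was close to that at 8:00, so the net difference lay almost wholly after 14:00, with a log2 value of -1.42 for that step. Steps that include 8:00 or 17:00 share libraries with the criterion and are given as descriptions, with no p.

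**Figure D2:**
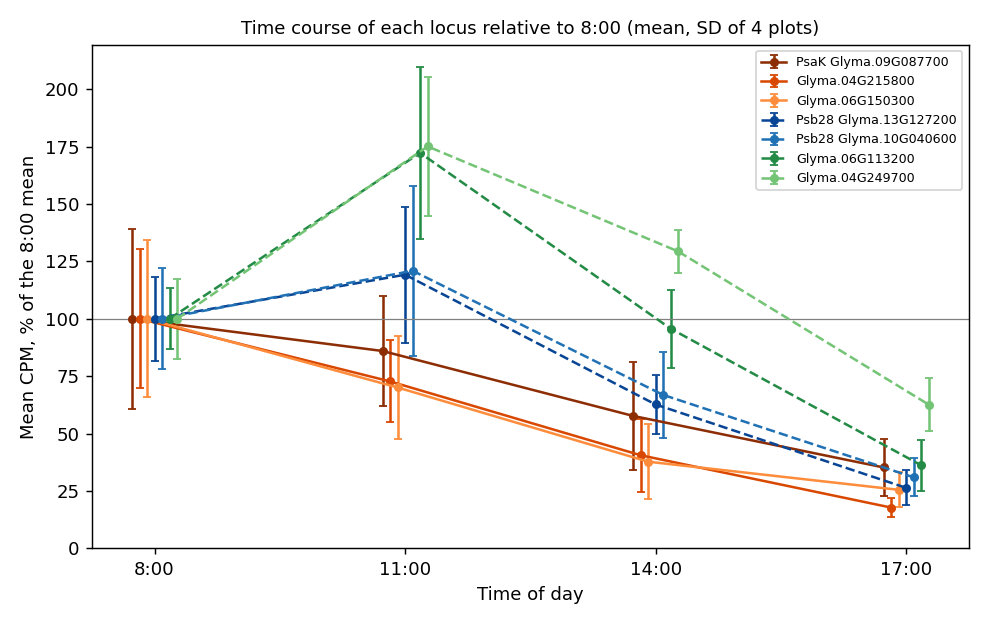
Mean CPM as a percentage of the mean at 8:00 (vertical axis) against time of day for the 7 loci, with bars for the SD of 4 plots on the same scale and points shifted slightly sideways. Solid lines mark the 3 loci highest at 8:00 and dashed lines the 4 highest at 11:00. Glyma.06G113200 and Glyma.04G249700 stand at 172% and 175% at 11:00, and Glyma.04G215800 reaches 17.7% at 17:00.

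Whether the decrease held between the midday samples was tested by comparing 14:00 with 11:00. The 8:00 and 17:00 libraries are not compared here, but the fit took its spread and plot terms from all 16 libraries. The p-values are thus not fully separate from the choice of members. Of the 7 loci, 6 fell (edgeR's quasi-likelihood test, adjusted p under 0.05), against 6.72% of all genes tested. None of the 7 rose, against 7.33% of all genes. PsaK had a log2 fold change of -0.63 ± 0.14 (± standard error; edgeR, adjusted p = 0.00844), and Glyma.06G150300 one of -0.94 ± 0.13 (adjusted p = 0.000504). For Glyma.04G215800 it was -0.89 ± 0.14 (adjusted p = 0.000825). The Psb28 loci had close values, -0.92 ± 0.14 in Glyma.13G127200 (adjusted p = 0.000795) and -0.85 ± 0.13 in Glyma.10G040600 (adjusted p = 0.000865). Glyma.06G113200 had -0.86 ± 0.18 (adjusted p = 0.00624). In Glyma.04G249700 the value was -0.44 with a 95% interval of -0.81 to -0.08, and it did not pass (adjusted p = 0.106 from edgeR).

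Each of these loci was lower at 14:00 than at 11:00 in all 4 plots, Glyma.04G249700 included. The light-harvesting gene Glyma.08G082900, used above as a mark of green tissue, was also lower in all 4 plots, with a log2 value of -0.45 that did not pass (edgeR, adjusted p = 0.118), and its part in the members' values was not tested. Glyma.01G115900 went the other way and was higher in all 4 plots (log2 fold change 0.90; edgeR, adjusted p = 0.00821). The median over the 7 loci was -0.86 on the log2 scale, against 0.00 over all genes. With libraries scaled by their totals alone the median of all genes was 0.20, and PsaK no longer passed (log2 fold change -0.44, adjusted p = 0.0691 from edgeR). The values given here are those under TMM. Without plot 4 the call for PsaK was lost (adjusted p = 0.0635), without plot 1 that for Glyma.06G113200 (adjusted p = 0.0535), and without the replicate block only 2 of the 7 loci passed, Glyma.13G127200 and Glyma.06G113200. In that last fit 8.46% of all genes passed in either direction.

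Whether a locus was higher in the middle of the day than at its ends was tested as the mean of 11:00 and 14:00 against the mean of 8:00 and 17:00. This contrast takes 8:00 and 17:00 together, so the difference between them does not enter its value. It still uses the libraries of both hours, and the study listed only genes that changed during the day. Its p-values are therefore not independent of the choice of members. The loci whose mean was highest at 11:00 were called so from these libraries, which bears on this contrast, so the results are read locus by locus. On the log2 scale Glyma.06G113200 was higher by 1.10 ± 0.13 (edgeR, adjusted p = 9.69e-05) and Glyma.04G249700 by 0.94 ± 0.12 (adjusted p = 0.000205). The Psb28 loci were higher by 0.75 ± 0.10 in Glyma.13G127200 (adjusted p = 0.000216) and by 0.67 ± 0.09 in Glyma.10G040600 (adjusted p = 0.000278). Each of these was higher in 4 of 4 plots.

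Among the loci highest at 8:00, Glyma.04G215800 also passed, with a smaller value of 0.35 ± 0.10 (edgeR, adjusted p = 0.0188), since its last step was steeper than its first. PsaK had 0.25 with a 95% interval of 0.04 to 0.46 and did not pass (adjusted p = 0.0836 from edgeR). Glyma.06G150300 had -0.00 with an interval of -0.20 to 0.20 (adjusted p = 0.994 from edgeR), and 2 plots were above 0 and 2 below. In all 5 of the 7 loci passed, against 12.1% of all genes tested that were higher in the middle of the day. This count is not independent of the choice of members. Glyma.08G082900 was higher by 1.44 ± 0.13 (edgeR, adjusted p = 2.02e-05), a movement whose part in the members' values was not tested. Glyma.01G115900 was higher by 0.61 ± 0.14 (edgeR, adjusted p = 0.00746). The call for Glyma.04G215800 was lost without plot 1, without plot 2 and without plot 4 (adjusted p = 0.0709, 0.0782 and 0.0508) and without the replicate block (adjusted p = 0.259), whereas the calls for the other 4 held in each of these fits.

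**Figure D3:**
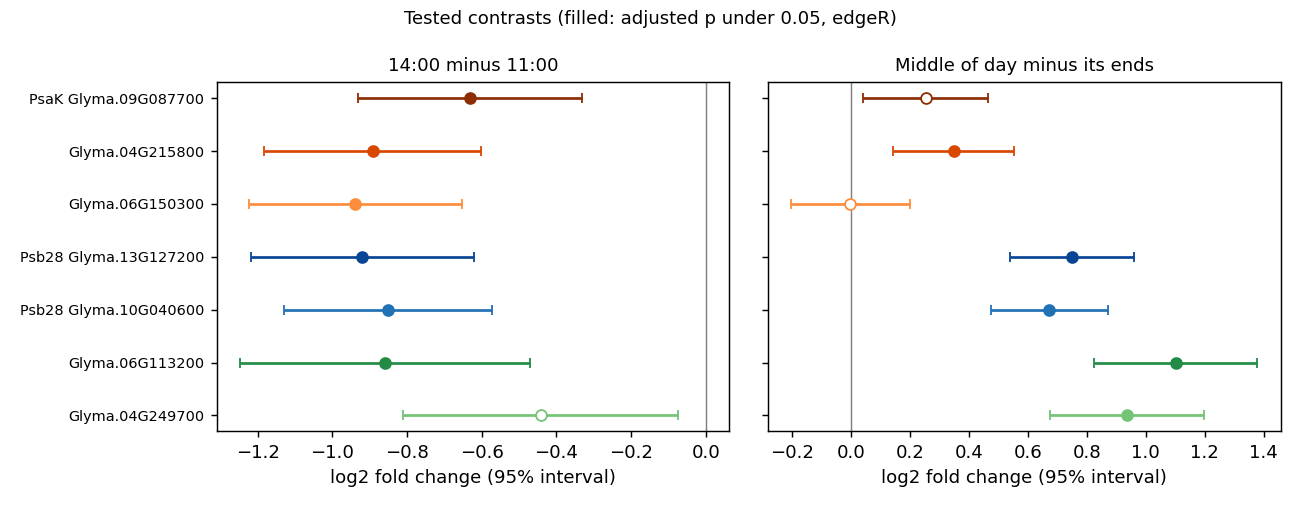
Log2 fold change with its 95% interval (horizontal axes) for each of the 7 loci (vertical axis) in the contrasts of 14:00 with 11:00 and of the middle of the day with its ends. Filled points passed an adjusted p of 0.05 in edgeR. In the left panel all values lie below 0, from -0.94 to -0.44, and in the right panel the 4 loci highest at 11:00 lie between 0.67 and 1.10.

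Plots, and thus sampling days, also differed, and this measure did not enter the choice of members. PsaK averaged 0.53 above its mean in plot 2 and 0.31 above it in plot 3 on the log2 scale, against -0.16 in plot 1 and -0.68 in plot 4 (adjusted p = 0.00108, edgeR's F test over the 4 plots). Glyma.06G150300 had the same order, with 0.55, 0.27, -0.18 and -0.64 in plots 2, 3, 1 and 4 (adjusted p = 0.000853 from edgeR). Glyma.04G215800 had 0.45, 0.25, -0.19 and -0.50 (adjusted p = 0.00275 from edgeR). In these 3 loci plot 4 had the lowest value at all 4 time points.

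The Psb28 loci were also lowest in plot 4 at all 4 time points, by -0.47 in Glyma.13G127200 (adjusted p = 0.0158 between plots, edgeR) and by -0.51 in Glyma.10G040600 (adjusted p = 0.00454). Between the highest and the lowest plot, Glyma.06G113200 spanned 0.58 on the log2 scale (adjusted p = 0.161) and Glyma.04G249700 spanned 0.30 (adjusted p = 0.565), and neither passed. Thus 5 of the 7 loci differed between plots, against 10.3% of all genes tested. Whether the plots acted differently on the 2 kinds of loci was not tested. Without plot 4 only Glyma.06G150300 still passed, in a fit that called 1.73% of all genes.

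In none of the 28 groups of 4 plots (7 loci at 4 time points) did 1 library stand apart by Dixon's criterion, plot 4 included. Its composition differed in part. The 10 most abundant genes took 7.35% of its counts at 8:00, against 8.03% to 9.76% in the other plots, 7.20% at 11:00 against 9.35% to 11.2%, and 4.96% at 14:00 against 6.03% to 7.78%. At 17:00 they took 6.45% in plot 4, close to the 5.91% to 6.41% elsewhere. The light-harvesting gene Glyma.08G082900 was likewise lowest in plot 4 at all 4 time points and differed between plots (log2 deviation -0.63 in plot 4; edgeR, adjusted p = 0.0123). The part of these differences in the plot results was not tested. The spread between plots within a time point was widest in the 3 loci highest at 8:00, with coefficients of variation between 24.1% and 43.3%. It lay between 18.3% and 30.7% in the Psb28 loci and between 7.28% and 31.0% in Glyma.06G113200 and Glyma.04G249700, so these ranges overlap.

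**Figure D4:**
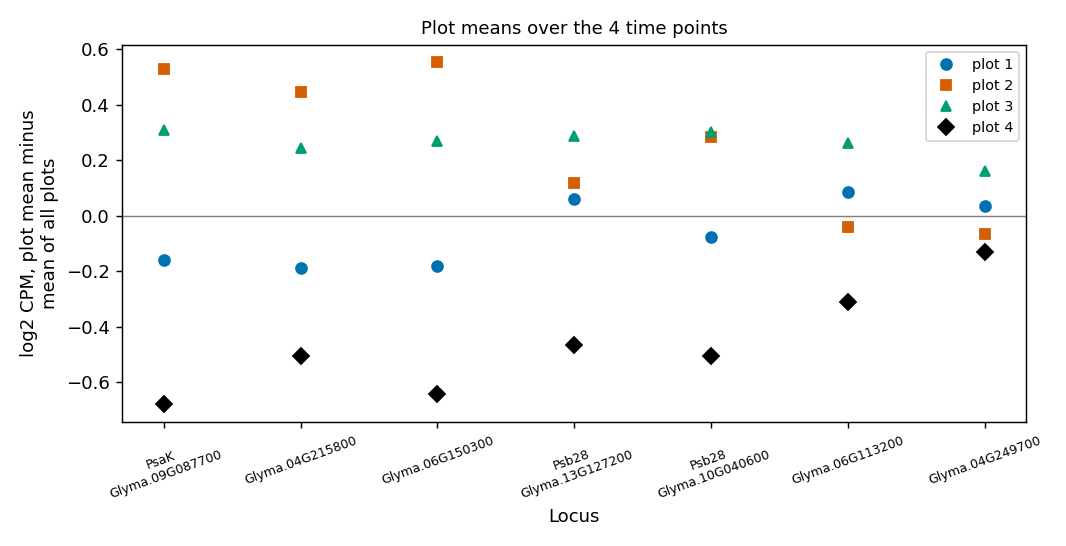
Mean log2 CPM of each plot over the 4 time points minus the mean over all plots (vertical axis) for each of the 7 loci (horizontal axis). PsaK, Glyma.04G215800 and Glyma.06G150300 share the order plot 2, plot 3, plot 1, plot 4, and Glyma.04G249700 shows the smallest span, 0.30.

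How alike the 7 time courses were was described by Pearson's r of log2 CPM over the 16 libraries, which share time of day and plot, with the 14771 other genes with a mean of at least 10 CPM ranked for each locus. The 3 loci highest at 8:00 correlated with each other with r between 0.95 and 0.97, and the 4 highest at 11:00 with r between 0.79 and 0.98. Across these kinds r lay between 0.45 and 0.94. The Psb28 loci were the closest pair, with r = 0.98, and Glyma.13G127200 was the gene most like Glyma.10G040600 of all those ranked. For Glyma.06G150300 the nearest gene was Glyma.04G215800 (r = 0.97) and PsaK ranked 3. Glyma.06G113200 ranked 4 for Glyma.04G249700 (r = 0.95).

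These ranges overlap: the highest value across the kinds, for Glyma.04G215800 and Glyma.10G040600, exceeds the lowest within the 4 loci. With the means of time points removed they overlapped as well, with r between 0.23 and 0.88 across the kinds, between 0.51 and 0.90 within the 4 loci and between 0.97 and 0.98 within the 3. With the means of plots removed too, the 3 loci had r between 0.61 and 0.86 and the 4 between 0.46 and 0.83, whereas pairs across the kinds had r between -0.50 and 0.16 (16 libraries). These values describe small deviations and have no test. Outside the set, the gene most like PsaK was Glyma.08G141400 (r = 0.97), to which the sources used here give no name, and the third was Glyma.14G086300 (r = 0.96), matched to L-asparaginase, an enzyme of asparagine breakdown. The gene most like Glyma.13G127200 was Glyma.12G037400 (r = 0.98), also unnamed.

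The balance of the Psb28 loci was tested for the same contrasts as the single loci. Glyma.13G127200 had a mean of 2.34 ± 0.366 reads for each read of Glyma.10G040600 in the 8:00 libraries, and the means of the later hours were 2.30 ± 0.271, 2.19 ± 0.197 and 1.95 ± 0.210 in turn (SD, n = 4), and the ranges of all 4 time points overlapped. These ratios are not corrected for gene length, so only their change can be read. The log2 ratio shifted by -0.07 ± 0.09 from 11:00 to 14:00 and by 0.08 ± 0.06 between the ends and the middle of the day (SD, n = 4 plots). An exact permutation test of both shifts together, with time labels permuted within plots, gave p = 0.642 (331776 permutations, two-sided). The permutation also exchanged the 8:00 and 17:00 labels, so the shift between those hours entered the permuted values and can raise p. The test therefore cannot show that the ratio was steady. The shift from 8:00 to 17:00, -0.26 on the log2 scale, lies in the contrast that chose the members and was not tested. In all 4 plots the ratio was lower at 17:00 than at 11:00 and at 14:00, and in 3 of 4 it was lower than at 8:00.

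The balance of Glyma.04G249700 and Glyma.06G113200 shifted after 11:00, an observation made after their values were seen and so without a test. In plots 1 to 4 the ratio of their reads was 0.993, 0.998, 1.08 and 1.00 at 8:00 and 0.993, 1.02, 1.02 and 1.17 at 11:00. It was 1.41, 1.35, 1.23 and 1.62 at 14:00 and 1.67, 1.81, 1.50 and 2.35 at 17:00. All values at 14:00 lay above all morning values, and within each plot the ratio was higher again at 17:00. Glyma.06G150300 against Glyma.04G215800 gave another course, with a mean ratio between 1.52 and 1.64 from 8:00 to 14:00 and of 2.36 ± 0.158 at 17:00, when each plot lay above all earlier values (SD, n = 4). The sources used here do not say whether the loci of these 2 pairs are duplicates, and where genes are nearly identical their reads may have been lost or assigned to either.

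**Figure D5:**
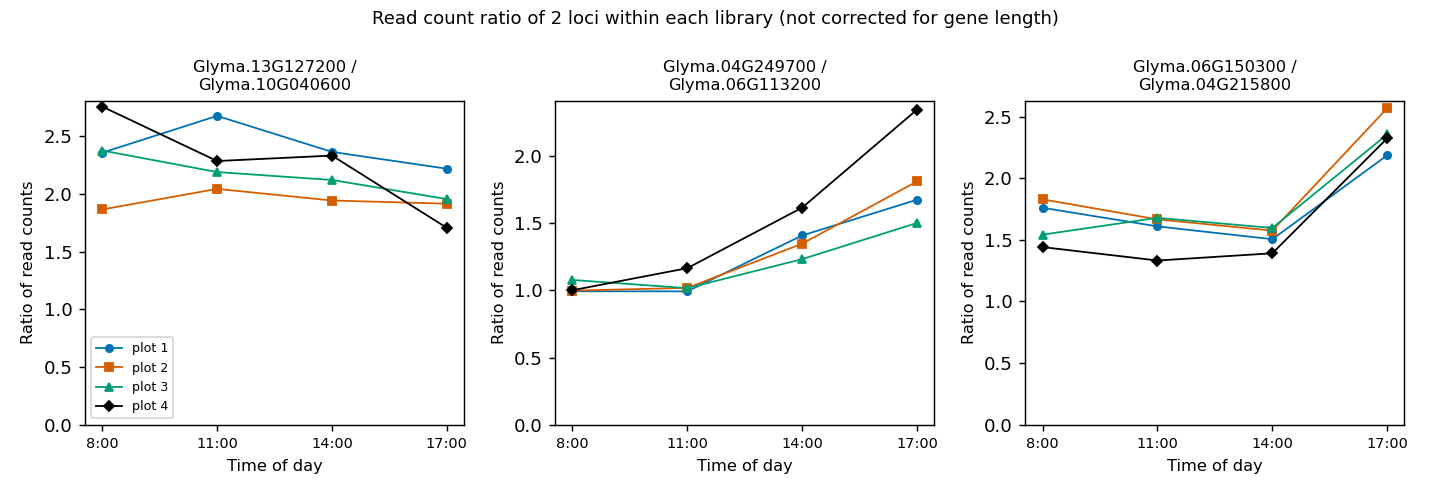
Ratio of read counts of 2 loci in the same library (vertical axes, from 0) against time of day, with 1 point per library and 1 line per plot, for the Psb28 loci and for 2 pairs of unnamed loci. The middle panel lies between 0.993 and 1.17 in the morning and between 1.50 and 2.35 at 17:00, and the right panel drifts down from a mean of 1.64 at 8:00 to 1.52 at 14:00 and is at 2.36 at 17:00.

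Of the other light-reaction loci that the study's text names, 2 resembled the members in having less transcript at 17:00 than at 8:00 in every plot, and 2 did not. Glyma.14G128500, an electron transport locus, had 25, 49, 60 and 40 reads in plots 1 to 4 at 8:00 and 3, 5, 1 and 0 at 17:00, and its means were 62.4%, 41.2% and 4.50% of the 8:00 mean at the later time points (edgeR, adjusted p = 7.37e-05 for 17:00 against 8:00). Glyma.17G205000, likewise an electron transport locus, stood at 127%, 104% and 51.2% of its 8:00 mean (17:00 against 8:00, log2 fold change -0.98, adjusted p = 9.98e-05 from edgeR). The study listed these loci too as changing during the day in the same libraries, so their p-values are not independent of that choice. As a description, a lower level at 17:00 was thus not particular to the members. PsbD (Glyma.01G153500), named for the D2 reaction centre protein of photosystem II, went from a mean of 2.64 ± 0.610 CPM at 11:00 to one of 4.12 ± 2.03 CPM at 14:00 (SD, n = 4), a log2 difference of 0.59 that did not pass (adjusted p = 0.164 from edgeR), though it was higher in all 4 plots. Of the 3 electron transport loci, which are linked to iron binding, Glyma.15G018000 rose from 16.7 ± 3.46 to 32.3 ± 9.56 CPM between 11:00 and 14:00 (log2 fold change 0.93 ± 0.15 standard error; edgeR, adjusted p = 0.00143). The other two, Glyma.17G205000 and Glyma.14G128500, had log2 values of -0.32 and -0.69 in the same step and did not pass (adjusted p = 0.182 and 0.431 from edgeR). Glyma.17G205000 was higher in the middle of the day than at its ends by 0.70 ± 0.11 on the log2 scale (edgeR, adjusted p = 0.000563), beside 0.75 and 0.67 in the Psb28 loci. Among these 4 loci, 1 rose and 0 fell from 11:00 to 14:00 by edgeR, with 0 lower at an unadjusted p under 0.05.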

How the data were processed

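Poly-A RNA of whole leaflets was sequenced in 16 libraries, 4 plots at 4 time points. After trimming (Trimmomatic) and alignment by TopHat to the soybean reference genome, the authors counted reads per gene with HTSeq-count and deposited these raw counts. CASAVA 1.8.2 appears in the submitters' processing notes. The sources used here do not state how strand was handled. Each of the 16 columns matched 1 sample by its name.

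A gene was kept if any library held at least 8 of its counts. Counts were fitted over all genes in R 4.3.3 with edgeR 4.0.16 (TMM scaling, quasi-likelihood test, time point and plot in the model, Benjamini-Hochberg adjustment). Standard errors were back-calculated from the F statistic and are approximate. Log2 CPM used a prior count of 1. The members, lists and tests were chosen with earlier results of these data known.

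The replicate number pairs libraries because the paper states that it is 1 plot and 1 day. Deviations from time point means had a median r of 0.242 over 24 same-plot pairs and -0.0703 over 72 others. Libraries of the same time point differed beyond sampling noise (chi-square per gene at least 19.0).

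Alternatives were DESeq2 1.42.0, limma-voom 3.58.1, other scalings and filters, no replicate block, no time term and each replicate left out; library totals alone and a fold threshold were added after seeing the data. The fits across genes were tested on simulated data.

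Genes named are the members, the loci of the study's text, the light-harvesting and photosystem loci given above or below and, for each member, genes of highest r. Of the 21 nearest places, 1 was a gene with a match among the 931 genes read from the study's annotation dataset, so most are not printed. The reference table did not match the locus identifiers, so the planned annotation lists, cell type markers, promoter motifs and sequences were not used here.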

Additional observations from a re-analysis of the deposited data

How the results depend on the processing

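From 11:00 to 14:00, 6 of the 7 loci fell in edgeR, and 5 to 7 did so under DESeq2 size factors, DESeq2's test, limma-voom, both other filters and library totals, and 5 to 6 with 1 replicate left out. Of all genes, 14.0% were called in either direction in edgeR, 10.6% to 17.8% in those other fits and 7.48% to 10.5% with 1 replicate left out. Without the replicate block the count was 2, against 8.46% of all genes in either direction. With a fold threshold of 1 on the log2 scale it was 0 in edgeR, DESeq2 and limma-voom (0 also at an unadjusted p under 0.05), since each of the 7 values lies under 1, and 1 for the middle of the day and 2 between plots. The shares of all genes under that threshold in edgeR were 5.85%, 4.51% and 6.31% in the same order. The count higher in the middle of the day was 5, and 4 to 6 in the other fits, against 21.2% and 11.8% to 25.6% of all genes in either direction. The 5 loci that differed between plots were 5 to 6 in the fits with another scaling, test or filter, 1 to 5 with a replicate left out (1 without replicate 4) and 0 with no time term (edgeR, 0 at an unadjusted p under 0.05), where the diurnal change enters the residual spread. Of all genes, 8.44% to 18.1%, 1.73% to 9.05% (1.73% without replicate 4) and 0.674% were called in the same fits, so few genes of any kind passed in the last. Glyma.06G150300 changed sign in the middle of the day against its ends, around 0, with no count filter (0.0021), without the replicate block (0.027) and with a replicate left out (-0.037 to 0.048). The Psb28 ratio kept p between 0.243 and 0.909 in the alternatives run. No member was limited by depth, with at least 351 reads in each library.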

Other observations

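A further 16 photosystem and light-harvesting loci have a match among the 931 genes read from the study's annotation dataset, which are all outliers of high spread between plots, so the list was chosen on these samples and stands for no family. From 11:00 to 14:00, 1 of the 16 fell and 1 rose (edgeR, adjusted p under 0.05), against 6.72% and 7.33% of all genes. Glyma.13G282000, matched to a light-harvesting complex II type III protein, fell by 0.65 on the log2 scale (adjusted p = 0.0385 from edgeR) and Glyma.09G154700, matched to CP26, a minor antenna protein of photosystem II, rose by 0.59 (adjusted p = 0.0123 from edgeR). At 17:00 against 8:00, 10 were higher and 1 lower, against 27.1% and 23.8% of all genes. In the middle of the day against its ends, 6 were higher and 0 lower, against 12.1% of all genes higher. The median over the 16 was 0.75 on the log2 scale, beside 0.67 over the 7 members, so a higher midday level was not particular to the members. Glyma.13G282000 was higher at midday by 0.95 (edgeR, adjusted p = 0.000396) and lower at 17:00 than at 8:00 by 0.63 (adjusted p = 0.0147 from edgeR).

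The list holds 4 photosystem I loci, whose courses are given here, though Glyma.09G144500 was near the floor. PsaD (Glyma.10G249000), the subunit on the stromal side where ferredoxin docks, averaged 1678 ± 689 CPM in the 8:00 libraries against 2274 ± 504 CPM in those of 17:00 (SD, n = 4; log2 difference 0.51, adjusted p = 0.0634 from edgeR). A PsaO locus (Glyma.12G092000) rose from 17.3 ± 6.51 to 44.5 ± 28.9 CPM (SD, n = 4; log2 fold change 1.17, adjusted p = 0.000315 from edgeR). The other PsaO locus (Glyma.11G181100) was also higher at 17:00 (log2 fold change 0.47, adjusted p = 0.0357 from edgeR), while from 11:00 to 14:00 it had -0.46 and PsaD -0.21, neither of which passed (adjusted p = 0.0963 and 0.570). Glyma.09G144500, matched to a photosystem I A apoprotein, had -0.39 at 17:00 against 8:00 and did not pass (adjusted p = 0.799 from edgeR). Its means were only 0.182 ± 0.183 CPM at 8:00 and 0.172 ± 0.206 CPM at 17:00 (SD, n = 4), so no course can be read from it. Whether these courses differ from that of PsaK was not tested.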
